A study of Homo sapiens with 2 samples.

Results

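The 9 genes described here encode the glucose transporter SLC2A1 and 8 enzymes of glycolysis and lactate production, HK2, PFKP, ALDOA, TPI1, GAPDH, ENO1, PKM and LDHA. They were chosen by name, with earlier results of these data known and hg19 gene spans fixed by that choice. Each span was widened by 5 kb at each end. The widened spans covered 343 kb in all and held 1 of the 385 summits in ZMYND8 knockout cells and 97 of the 45924 summits in parental cells. A summit is the position of highest signal within a peak of sequenced DNA.

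The summits came from chromatin immunoprecipitation and sequencing (ChIP-seq) with an antibody against ZMYND8, a chromatin reader with bromodomain, PHD, PWWP and MYND domains. Mammospheres, which are clumps of breast cells kept in suspension to favour stem-like growth, were grown from MDA-MB-231, an established triple-negative breast cancer line. The data comprised 2 libraries, 1 from spheres carrying a ZMYND8 knockout and 1 from parental spheres labelled wild type, and both used the same medium, chromatin kit and antibody. The labels do not say how the knockout was made or how many clones it comprised, and the title of the series places the work in the metabolism of 27-hydroxycholesterol. Since neither group was replicated, no difference between the libraries has a replicate check. Every interval given is a 95% interval for counting error alone.

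Glycolysis splits glucose into pyruvate in the cytosol and yields ATP and NADH. Cells take up glucose through transporters such as SLC2A1, hexokinase traps it as glucose 6-phosphate, and lactate dehydrogenase turns pyruvate into lactate while restoring NAD+. Many tumour cells use this route heavily even with oxygen at hand, and SLC2A1, HK2, PKM, ENO1 and LDHA are textbook targets of the hypoxia-inducible factors and of MYC. ZMYND8 itself has been described as a partner of the hypoxia-inducible factors in breast cancer cells.

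RefSeq promoter windows of 4 of the genes are shown because summits lay on or beside the hg19 span starts of these genes. The RefSeq starts of the windows were not matched to those span starts, so a window may belong to a different start of the gene. ENO1 carried the sole knockout summit of the set, SLC2A1 the highest parental score at a start that had none in the knockout list, and LDHA and GAPDH, like PKM, had parental summits on both sides of the start. The sequences are RefSeq promoter windows of GRCh38.p14, each of 300 bases, with 250 before the start and 50 after it, read 5′ to 3′ on the strand of the gene. They lie at chr1:8878637-8878936 (minus strand) for ENO1, chr1:42958819-42959118 (minus strand) for SLC2A1, chr11:18394313-18394612 (plus strand) for LDHA and chr12:6535014-6535313 (plus strand) for GAPDH. Capitals mark ACGTG and GCGTG on either strand, the core letters of the hypoxia response element.

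ENO1: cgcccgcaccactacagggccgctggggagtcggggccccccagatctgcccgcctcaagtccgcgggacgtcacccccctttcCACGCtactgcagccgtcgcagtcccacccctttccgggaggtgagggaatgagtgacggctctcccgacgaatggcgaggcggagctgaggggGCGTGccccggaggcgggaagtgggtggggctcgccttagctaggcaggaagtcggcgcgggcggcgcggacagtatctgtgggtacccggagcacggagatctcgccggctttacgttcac

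SLC2A1: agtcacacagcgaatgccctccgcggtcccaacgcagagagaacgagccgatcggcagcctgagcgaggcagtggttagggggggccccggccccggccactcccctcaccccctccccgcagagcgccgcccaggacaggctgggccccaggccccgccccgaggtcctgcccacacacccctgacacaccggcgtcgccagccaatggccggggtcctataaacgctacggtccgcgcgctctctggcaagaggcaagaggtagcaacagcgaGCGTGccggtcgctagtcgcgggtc

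LDHA: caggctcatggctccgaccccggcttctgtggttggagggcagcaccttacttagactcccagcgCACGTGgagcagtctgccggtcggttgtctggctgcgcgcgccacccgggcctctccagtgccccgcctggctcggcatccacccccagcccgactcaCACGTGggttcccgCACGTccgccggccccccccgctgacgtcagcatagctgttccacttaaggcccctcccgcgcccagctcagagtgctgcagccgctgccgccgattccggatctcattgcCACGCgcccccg

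GAPDH: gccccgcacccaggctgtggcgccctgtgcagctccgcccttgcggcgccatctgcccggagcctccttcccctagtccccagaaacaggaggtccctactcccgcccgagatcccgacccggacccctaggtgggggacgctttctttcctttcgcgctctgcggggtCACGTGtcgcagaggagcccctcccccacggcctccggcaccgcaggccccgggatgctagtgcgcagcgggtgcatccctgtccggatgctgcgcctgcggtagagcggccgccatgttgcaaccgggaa

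The LDHA window is the more upstream of 2 that RefSeq lists. It held 6 such cores with the strands counted separately, more than ENO1 with 2, GAPDH with 2 or SLC2A1 with 1. Over the 17 windows that RefSeq lists for the 9 genes, ACGTG occurred in 9 and GCGTG in 9, against 21.4% and 36.5% of all 35116 windows in the table. CACGTG, the E-box bound by MYC, contains ACGTG on both strands and occurred in 4 windows, of ALDOA, GAPDH, HK2 and LDHA (7.26% of all windows). The GC box GGGCGG occurred in 12 windows (45.0% of all) and the TATA box TATAAA in that of SLC2A1 alone (11.5% of all). Genes with several windows count more than once in these figures. In the most upstream window of each of the 9 genes, ACGTG occurred in 4, GCGTG in 5, CACGTG in 2 and GGGCGG in 7. The windows ranged from 53.3% to 79.7% G and C, against a median of 58.7% over all windows. Below that median lay only the most downstream PFKP window and the ALDOA windows other than the most downstream. All of these motifs but TATAAA contain CG, and the shares were not adjusted for base composition. A match describes letters in a window and not a bound site, and the windows were not placed against the hg19 summits.

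In the knockout library 8 of the 9 genes had no summit, and ENO1 had 1. Among 284 sampled protein-coding genes, described below, 1.41% had a knockout summit in the widened span, so lacking one is common to nearly all of them. In the parental library all 9 genes had at least 1 summit, from 2 in ALDOA and TPI1 to 22 in PFKP. Between these lay LDHA with 6, GAPDH with 5, ENO1 with 10, PKM with 12, and HK2 and SLC2A1 with 19 each. For a single gene the exact Poisson interval ran from 0 to 3.69 around no knockout summit, and from 13.8 to 33.3 around the 22 parental summits of PFKP. The knockout and parental intervals overlapped for ALDOA and TPI1 (parental 0.242 to 7.22), GAPDH (1.62 to 11.7), LDHA and ENO1 (knockout 0.0253 to 5.57, parental 4.80 to 18.4). They did not overlap for SLC2A1, HK2, PFKP and PKM, with the parental count higher, nor for 4.23% of the sampled genes, which differ from these in length. Of the sampled genes, 65.5% had a parental summit in the widened span. The knockout list as a whole was far shorter, and read depth is unknown, so fewer sites bound and fewer sites called cannot be told apart.

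**Figure D1:**
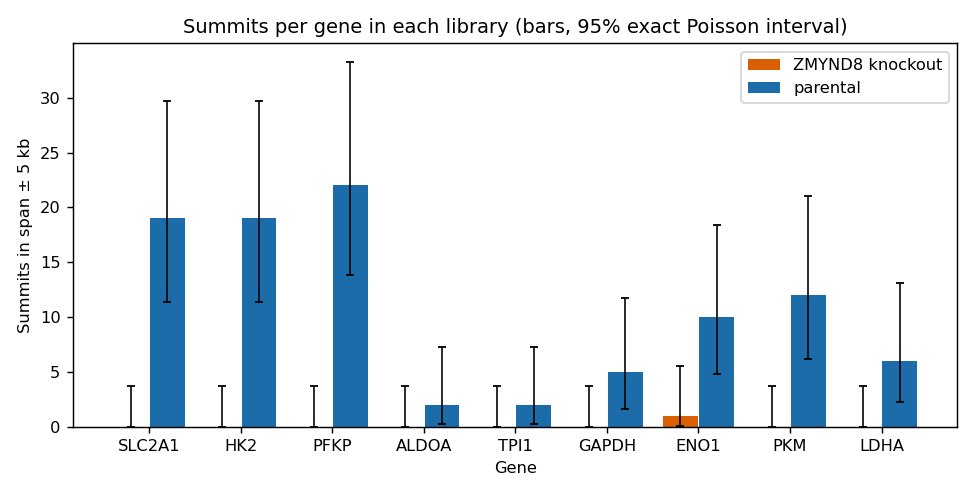
Number of summits in each gene span widened by 5 kb (y axis) for the 9 genes (x axis), with ZMYND8 knockout bars in orange and parental bars in blue. Error bars are 95% exact Poisson intervals. ENO1 alone has a knockout summit, and parental counts range from 2 in ALDOA and TPI1 to 22 in PFKP.

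Of the 97 parental summits, 95 (97.9%, exact binomial interval 92.7 to 99.7) had no knockout summit within 1000 bp, as had 98.8% of the whole parental list. The share is thus near that of all sites. Both exceptions were at the start of ENO1. Outside ENO1, the knockout summit nearest to any parental summit of these genes lay 753 kb away, beside HK2, and for GAPDH the nearest lay 4.22 Mb away.

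Together the parental summits came to 283 per Mb of the widened spans (230 to 345), against 15.1 per Mb over chromosomes 1 to 22 and X, a ratio of 18.7. The ratio was 21.5 for summits with a score of at least 5 and 18.5 for the 6 summits with a score of at least 10. The knockout list gave 2.92 per Mb of the same spans (0.0739 to 16.3), from its 1 summit, against 0.127 per Mb of the chromosomes. Each gene was denser than its own chromosome in the parental library, from 4.33 times for ALDOA on chromosome 16 to 27.5 times for SLC2A1 on chromosome 1.

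Each summit carries a score, a −log10 p or q value from the authors' peak caller, which served here to rank summits within a list. Over the 97 parental summits it ran from 1.45 to 21.69 with a median of 3.98, against a median of 3.79 in the whole list. The upper quartile of the list, a score of 5.68, was reached by 31 of them (32.0%, 22.9 to 42.2), against 26.1% of all parental summits. A score of at least 10 was reached by 6 (6.19%, 2.30 to 13.0), against 6.27% of all. Both shares have intervals that contain the share of the whole list, so these genes had more summits per length than the genome but not a detectably higher share of strong ones. Ranks were often tied, since 43 of the 97 summits shared 1 of only 4 values.

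The 6 strong parental summits were spread over 5 genes. ENO1 held 2 of them, with scores of 21.7 and 12.4. SLC2A1 held a score of 18.9, PKM 14.9, PFKP 10.9 and HK2 10.02. Of the 284 sampled protein-coding genes, 7.75% held a summit with a score of at least 10. ALDOA, TPI1, GAPDH and LDHA had none, with highest scores of 3.79, 6.70, 6.70 and 7.77.

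**Figure D2:**
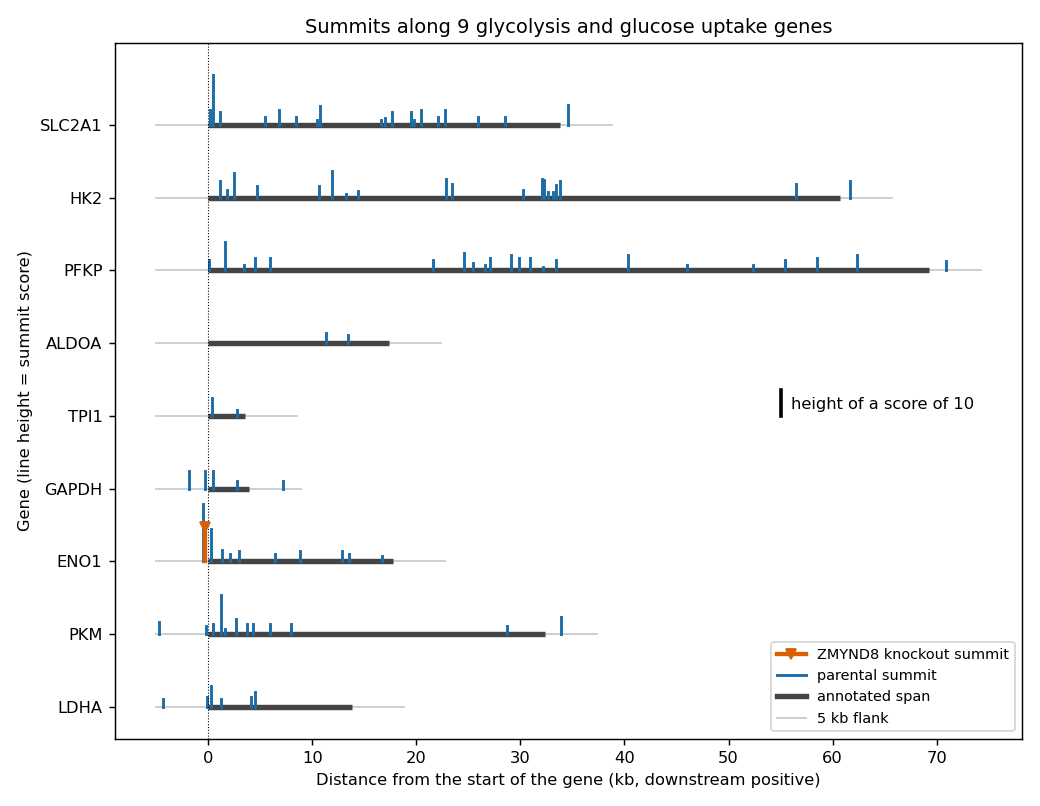
Positions of summits (x axis, kb from the start of the gene, downstream positive) along the 9 gene spans (rows), with line height proportional to the summit score. The orange marker is the ZMYND8 knockout summit and blue lines are parental summits. The knockout summit stands 356 bp upstream of the start of ENO1, and 6 parental summits of HK2 crowd together near 33 kb.

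Glucose uptake is represented by SLC2A1 (GLUT1), the transporter that supplies most cells with basal glucose, whose span lies at 43391046 to 43424847 of chromosome 1 on the minus strand. The knockout list held no summit there and the nearest lay 1.07 Mb away. The parental list held 19, or 434 per Mb, the highest density of the 9 genes. The highest stood 419 bp downstream of the start, at position 43424428, with a score of 18.9 and rank 327 of the list. A second lay 119 bp downstream with a score of 5.68 and another 1132 bp downstream with 4.71. The other summits were spread over the body, among them one at 10.8 kb with a score of 7.23 and 3 at 6.76, 20.4 and 22.7 kb with 5.68 each. The last, with a score of 7.63, stood 811 bp past the end of the span.

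HK2, the hexokinase isoform that binds mitochondria and is abundant in tumours, spans 75059782 to 75120481 of chromosome 2 on the plus strand. The knockout list held no summit of HK2 and the parental list 19 (269 per Mb). None lay within 1 kb of the span start, and the nearest stood 1131 bp downstream with a score of 6.46. The highest score, 10.02, was at 75071717, 11.9 kb into the gene, followed by 9.26 at 2.47 kb. RefSeq lists 2 start windows for HK2, so a start other than that of the span may be in use, which was not tested.

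A tight group of 6 parental summits lay in HK2 between positions 75091817 and 75093548, a stretch of 1731 bp that begins 32.0 kb into the gene. Their scores from the start outward were 7.15, 6.53, 2.06, 2.32, 4.66 and 6.47. Of all 45924 parental summits, only 5 (0.0109%) opened a window of 2 kb with 6 or more summits, and the first of this group was one of them. The group was singled out after its values were seen, and no knockout summit lay within 753 kb of the gene.

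PFKP, the platelet isoform of phosphofructokinase, which catalyses the committed step of glycolysis, spans 3109712 to 3178997 of chromosome 10 on the plus strand. It had no knockout summit and 22 parental summits (277 per Mb), the most of the set in the longest span. The summit nearest the start stood 95 bp downstream with a score of only 3.79. The highest, 10.9, was at 3111278, 1566 bp downstream. Between 21.6 and 33.4 kb the gene held a series of 10 further summits with scores from 1.45 to 6.53. RefSeq lists 4 start windows for this gene.

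ALDOA, the aldolase of muscle and most tumours, splits fructose 1,6-bisphosphate and spans 30064411 to 30081741 of chromosome 16 on the plus strand. It had no knockout summit and 2 parental summits, or 73.2 per Mb, the lowest density of the set. They lay 11.3 and 13.4 kb into the span with scores of 3.79 and 2.93, so none was near the span start. The gene is known for several alternative promoters, and RefSeq lists 3 start windows for it, whose hg19 positions were not used here.

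TPI1, triosephosphate isomerase, interconverts the products of aldolase and has the shortest span, 6976584 to 6980110 of chromosome 12 on the plus strand. It had no knockout summit and 2 parental summits (148 per Mb). One stood 308 bp downstream of the start with a score of 6.70, and the other at 2.75 kb with 2.14.

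GAPDH, the dehydrogenase that yields NADH in glycolysis, spans 6643585 to 6647537 of chromosome 12 on the plus strand. It had no knockout summit and 5 parental summits (358 per Mb). Those 1900 bp upstream, 292 bp upstream and 476 bp downstream of the start shared a score of 6.70 and rank 6747. GAPDH-DT, a divergent transcript, is the next gene on the upstream side. In a single gene model of this locus, the summit 476 bp downstream lay in an intron. Another, at 6646344 with a score of 2.93, lay in an exon, and the last, with the same score, lay 3244 bp past the end, on the side of the neighbouring gene IFFO1.

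ENO1, enolase, makes phosphoenolpyruvate and spans 8921059 to 8938780 of chromosome 1 on the minus strand. The knockout summit stood at 8939136, 356 bp upstream of the start, with a score of 13.2 and rank 37 of the 385. The parental list held 10 summits (361 per Mb). The highest stood at 8939288, 508 bp upstream, with a score of 21.7 and rank 202 of the 45924. The knockout and parental summits were 152 bp apart, and this was the 1 parental summit of the 97 (1.03%, 0.0261 to 5.61) with a knockout summit within 200 bp, against 0.636% of the whole list. The antibody was against ZMYND8, so a summit in the knockout library may not mark ZMYND8. Whether the signal at this site, the highest parental score of the set, depends on ZMYND8 was not tested.

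A second strong parental summit of ENO1, with a score of 12.4, lay 262 bp downstream of the start and 618 bp from the knockout summit. The other 8 parental summits ran through the body from 1302 to 16669 bp downstream of the start with scores from 2.14 to 4.50, and none had a knockout summit within 1000 bp. In the example set that holds the sampled genes, which names no build, the long noncoding RNA gene ENO1-AS1 starts 114 bp from the ENO1 start on the opposite strand and spans 8938894 to 8939943. The knockout summit lay 242 bp and the upstream parental summit 394 bp from its start, both in its intron, so the site cannot be given to ENO1 alone.

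PKM, pyruvate kinase, whose M2 splice form prevails in many tumours, spans 72491370 to 72523727 of chromosome 15 on the minus strand. No knockout summit lay in PKM, against 12 parental summits (283 per Mb). The highest, with a score of 14.9 and rank 731, stood at 72522468, 1259 bp downstream of the start. The summits nearest the start were lower, with 2.93 at 176 bp upstream and 3.79 at 453 bp downstream. Between 7.93 and 28.7 kb into the gene no summit was listed. A summit 4.70 kb upstream with a score of 4.71 lay on the side of PARP6, and one 1556 bp past the end with 6.70 on the side of GRAMD2A.

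LDHA, the lactate dehydrogenase subunit favoured in glycolytic tissue, spans 18415936 to 18429765 of chromosome 11 on the plus strand. LDHA held no knockout summit and 6 parental summits (252 per Mb). Those 107 bp upstream and 298 bp downstream of the start had scores of 3.79 and 7.77, and the downstream one, of rank 4726, was the highest of the gene. The other summits lay 4.39 kb upstream and 1.22, 4.07 and 4.53 kb downstream, with scores from 2.93 to 5.68. Beyond 4.53 kb, the rest of the gene and the 5 kb past its end held none.

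**Figure D3:**
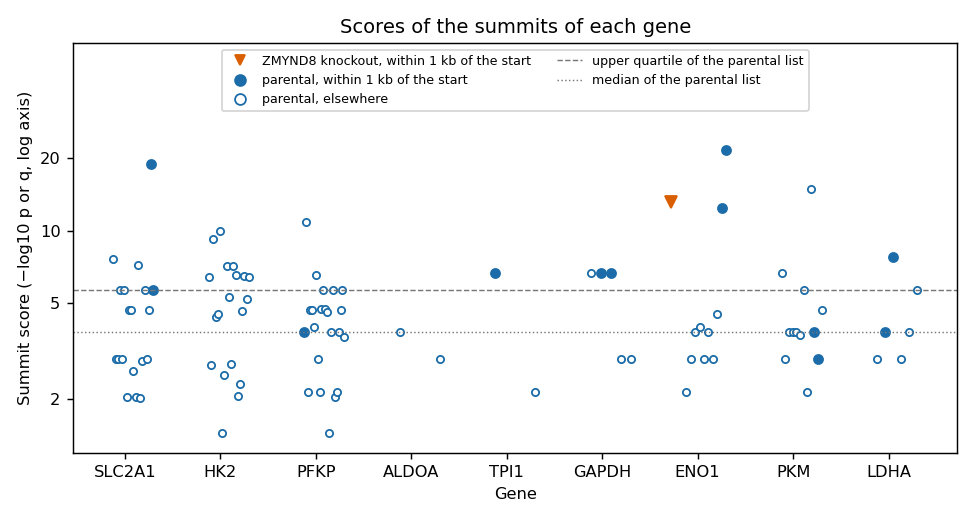
Score of each summit (y axis, log scale, −log10 p or q) for the 9 genes (x axis). Orange marks the ZMYND8 knockout summit and blue circles the parental summits, filled within 1 kb of the start. Dashed and dotted lines are the upper quartile (5.68) and median (3.79) of the parental list. ENO1, SLC2A1 and PKM reach the highest parental scores, and ALDOA stays at or below 3.79.

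At the starts, 1 of the 9 genes (11.1%, 0.281 to 48.2) had a knockout summit within 1 kb and 7 of the 9 (77.8%, 40.0 to 97.2) had a parental one. Among the sampled genes, 0.704% had such a knockout summit. HK2 and ALDOA lacked the parental summit at the start of the span. RefSeq lists 2 start windows for HK2 and 3 for ALDOA, and summits at those starts were not counted because their hg19 positions were not used. The 284 sampled genes come from a software example set that names no build. Its GAPDH model ends at 6647537, the end of the hg19 span, and starts 98 bp downstream of the span's start. Of these genes, 50.0% had a parental summit within 1 kb of the start, as did 2.39% of 2001 bp tiles of the genome. The interval for the 9 genes contains the share of the sampled genes. The 7 genes had 12 parental summits in these windows, 8 downstream of the start and 4 upstream.

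Parental summits at the starts had higher scores than those elsewhere in the same genes. Within 1 kb of a start, 8 of 12 (66.7%, 34.9 to 90.1) reached the upper quartile of the list and the median score was 6.70. Beyond 1 kb, 23 of 85 (27.1%, 18.0 to 37.8) did and the median was 3.79. The intervals of both shares overlap. In PFKP, PKM and GAPDH no summit at the start scored above the median of its gene. In SLC2A1, TPI1, ENO1 and LDHA at least 1 did. In 4 genes, SLC2A1, TPI1, ENO1 and LDHA, the highest summit lay within 1 kb of the start, and in GAPDH a summit there tied with the highest. In PKM and PFKP it lay 1259 and 1566 bp downstream.

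The first 5 kb of the spans held more parental summits per length than the rest. Over the 9 genes the first 5 kb, or the whole span where it was shorter, held 29 summits, or 683 per Mb (457 to 980). The rest held 56, or 267 per Mb (201 to 346). Of the 7 spans longer than 5 kb, 6 were denser in the first 5 kb, from PKM with 6 summits against 3 to SLC2A1 with 3 against 15 in a much longer stretch. ALDOA was the exception, with 0 against 2, counted from the start of the span. RefSeq lists 3 start windows for ALDOA, and these were not placed on hg19. In the sampled genes the corresponding densities were 133 per Mb (114 to 153) and 19.2 per Mb (18.0 to 20.5). A single model, TRIM40, had an implausible span of 28.8 Mb and 702 of the 925 summits in the rest. Without it the densities were 133 per Mb (115 to 154) and 11.5 per Mb (10.1 to 13.2).

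**Figure D4:**
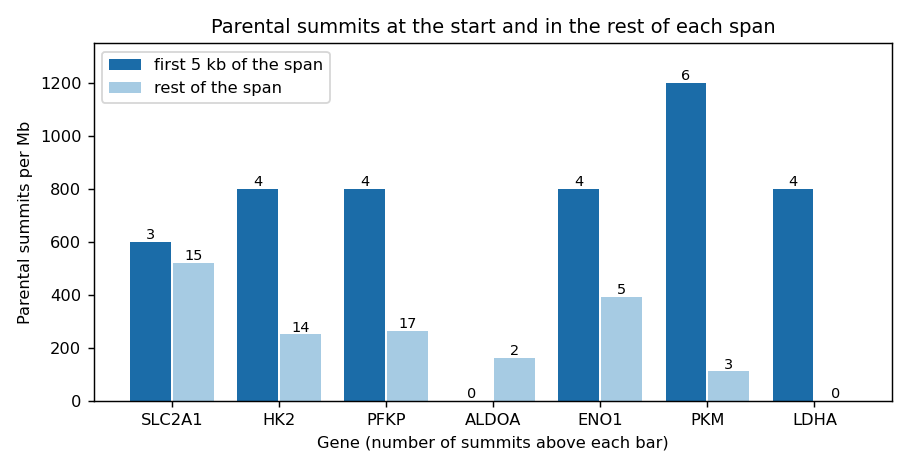
Parental summits per Mb (y axis) in the first 5 kb of the span (dark bars) and in the rest of it (light bars), for the 7 genes whose span is longer than 5 kb (x axis), with the number of summits above each bar. All but ALDOA are denser in the first 5 kb, from 600 per Mb in SLC2A1 to 1200 per Mb in PKM.

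Set beside the sampled protein-coding genes, the 9 genes had more summits per length. Their median was 277 parental summits per Mb of widened span, against 22.4 over the 284 sampled genes and 50.6 over the 142 sampled genes with a summit at the start. Over the 190 sampled genes in the length range of the 9, the median was 38.5 per Mb. Each of the 9 lay above the upper quartile of all sampled genes, 59.3 per Mb. ALDOA, at 73.2 per Mb, lay below the upper quartile of those with a summit at the start, 91.9 per Mb. The density of ALDOA was reached by 19.7% of all sampled genes and by 31.7% of those with a summit at the start. The median of the 9 was reached by 9 sampled genes (3.17%), 1 of which was GAPDH itself. The sampled set is not known to be a random sample of genes, and how strongly any gene was transcribed in these cells cannot be read from summit lists. Longer spans held more parental summits across the 9 genes (Spearman rho 0.924, n = 9, all from 1 library).

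**Figure D5:**
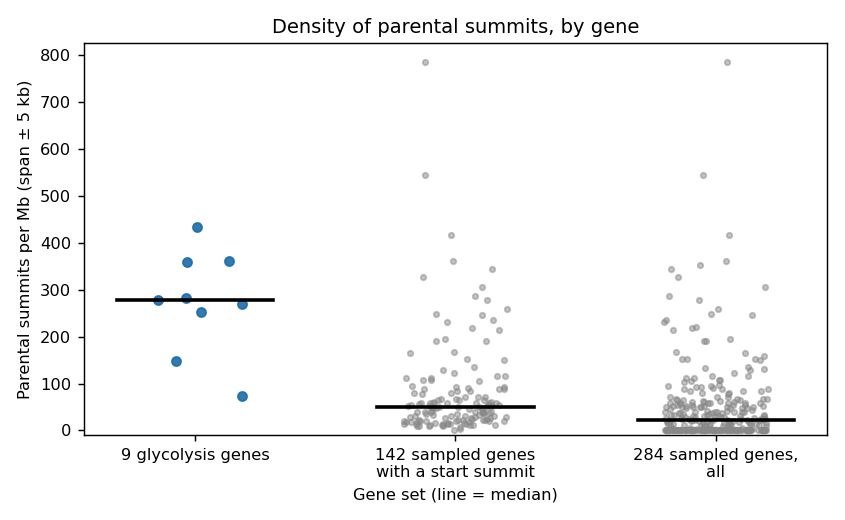
Parental summits per Mb of widened span (y axis), 1 point per gene, for the 9 glycolysis genes, the 142 sampled genes with a summit at the start and all 284 sampled genes. Horizontal lines are medians, at 277, 50.6 and 22.4 per Mb. All 9 genes lie above the upper quartile of all 284 sampled genes, 59.3 per Mb. ALDOA lies below that of the 142 with a summit at the start, 91.9 per Mb.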

How the data were processed

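ZMYND8 ChIP-seq summit lists of 1 ZMYND8 knockout and 1 parental library were used, grouped by labelled genotype. Per the submitters' processing notes, the build was hg19 and the tools included MACS2 2.0.10, Picard 1.127, Bowtie2 2.2.3 and FastQC 0.11.2. Control, calling threshold and depth: not given in the sources used here. The authors deposited, for each library's summits, a position and a −log10 score, either p or q. Scores depend on depth, so they were ranked within a list only.

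Positions are 1-based hg19, and the start is the 5′ end of the span. The 9 genes and all lists were chosen with earlier results of these data known, and all 9 are named. Counts carry exact Poisson and shares Clopper-Pearson intervals. Chromosome lengths and 390 gene models, 284 protein-coding by symbol in RefSeq, came from an example set in pyranges 0.1.4, which states no build. Of the 33 other glycolysis genes listed, 0 had a model there and none was analysed here. No test across libraries was possible. Counting was tested on simulated lists. Work was done in Python 3.11.15 with scipy 1.17.1, numpy 2.4.6, matplotlib 3.10.9 and pandas 2.3.3. Alternatives covered widening, score minimum, merging, distances and windows.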

Additional observations from a re-analysis of the deposited data

How the results depend on the processing

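No paired analysis was possible because knockout and parental cells are each represented by a single library. A count or density was taken to hold within 1.5 times its reported value, and a share inside its 95% interval. Of 49 alternatives 36 held and 13 did not. A reversal could be recorded only for the median density beside sampled genes, where 0 occurred. The share of genes with a start summit does not depend on the widening, so it held by construction with no widening and with wider spans. A higher score minimum can only lower a count or density, and a threshold at the list median can only raise the share reaching it. Without ENO1, which held the sole knockout summit, shares of 0% and 100% were fixed in advance. The tally is therefore not a measure of how robust the results are. With a score of at least 5, the 9 genes had 33 parental summits (96.3 per Mb). Their median density was then 73.9 per Mb and that of the sampled genes 0, so the excess equals the median of the 9 itself. With all summits the excess was 255 per Mb. With a score of at least 10 required in both lists, they had 6 parental summits (17.5 per Mb) and a start summit in 22.2% of genes. Of those 6 summits, 66.7% had no knockout summit within 1000 bp and 16.7% had one within 200 bp. The same shares over the sampled genes and the whole parental list were not computed at this score, so these values have no comparison. The share with a knockout summit within 200 bp was 0% with no widening, within 100 bp or without ENO1, and without ENO1 the share with none within 1000 bp was 100%. At or above the median score of the list lay 62.9%, against 58.4% of all parental summits, with ties at the median counted. The setting without ENO1, the start window of 5000 bp and all settings of the sampled genes were chosen after seeing the data. Read depth is unknown, which limits how the lists can be compared.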
